A study of Homo sapiens with 10 samples.

Results

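The 10 genes described here are the surfactant and alveolar type 2 secretory genes SFTPA1, SFTPA2, SFTPB, SFTPD, NAPSA, LAMP3, ABCA3, SLC34A2, C16orf89 and LPCAT1. They were chosen by name, as the rows of the count table whose Ensembl ID maps to these symbols, and they are 10 of 57736 gene IDs. The series sequenced RNA of 3 p53-mutant human lung cancer lines: NCI-H2087 with V157F, NCI-H441 with R158L and NCI-H2110 with R158P. Each line was transfected with a control siRNA (siCtrl) or an siRNA against p53 (sip53), so all groups share a p53-mutant background and none has wild-type p53 by the labels. Both arms of NCI-H2087 and of NCI-H441 were sequenced as n = 2 libraries, and both arms of NCI-H2110 as 1 library, labelled replicate 2. Since no mutation is shared by lines, line and mutation cannot be told apart. The sample titles speak of a knockout and the protocol of an siRNA. The labels do not say that replicates were separate cultures, so p-values measure the spread between these libraries only.

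Alveolar type 2 cells line the air sacs of the lung and make surfactant, a mixture of lipids and proteins that lowers surface tension. Surfactant lipids and the protein SFTPB are packed into lamellar bodies, organelles related to lysosomes, and are released by exocytosis. The transcription factor NKX2-1, together with forkhead and C/EBP factors, is known to drive surfactant genes, and many lung adenocarcinomas keep part of this programme. SFTPA1, SFTPA2 and SFTPD encode collectins, secreted lectins of innate defence. SFTPB encodes a small hydrophobic surfactant protein, and NAPSA an aspartic protease that takes part in its processing. LAMP3 is a membrane protein of lysosomes and lamellar bodies, ABCA3 is the lipid transporter of the lamellar body, LPCAT1 makes the saturated phosphatidylcholine of surfactant, and SLC34A2 is a sodium-phosphate cotransporter. C16orf89 encodes a secreted protein of poorly known function.

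RefSeq start-site windows (GRCh38.p14, 250 bases before to 50 after a start) were matched for 8 of the 10 genes, giving 12 windows. LAMP3 and C16orf89 had no match. The counts use the hg19 build, so positions here belong to the sequences only. The 250 bases before the start are shown for SFTPA1 (chr10:79610689-79610938, plus strand), SFTPA2 (chr10:79560408-79560657, minus strand) and the second SFTPB window (chr2:85668200-85668449, minus strand), which fell most among the surfactant proteins in NCI-H2087. The first SLC34A2 window (chr4:25655601-25655850, plus strand) is shown because this gene differed most between lines. Capitals mark matches to TATAA on the gene's own strand, and to the forkhead forms GTAAACA and ACAAACA or the NKX2-1 core CTCAAG on either strand. These motifs were picked after the sequences had been seen.
SFTPA1: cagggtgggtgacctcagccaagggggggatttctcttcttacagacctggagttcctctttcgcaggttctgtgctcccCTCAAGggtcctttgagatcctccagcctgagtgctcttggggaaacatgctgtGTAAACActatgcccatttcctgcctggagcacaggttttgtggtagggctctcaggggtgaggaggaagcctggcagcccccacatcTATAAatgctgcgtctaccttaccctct
SFTPA2: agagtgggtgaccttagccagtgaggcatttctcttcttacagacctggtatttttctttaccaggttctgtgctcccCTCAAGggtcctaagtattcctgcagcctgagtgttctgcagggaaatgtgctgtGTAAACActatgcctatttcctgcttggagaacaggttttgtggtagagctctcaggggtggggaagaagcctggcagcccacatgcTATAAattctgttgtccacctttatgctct
SFTPB: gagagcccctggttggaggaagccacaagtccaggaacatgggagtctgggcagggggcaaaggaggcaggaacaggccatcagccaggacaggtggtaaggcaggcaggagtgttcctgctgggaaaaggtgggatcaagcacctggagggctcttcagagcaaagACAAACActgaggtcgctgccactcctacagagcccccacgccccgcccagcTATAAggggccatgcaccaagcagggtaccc
SLC34A2: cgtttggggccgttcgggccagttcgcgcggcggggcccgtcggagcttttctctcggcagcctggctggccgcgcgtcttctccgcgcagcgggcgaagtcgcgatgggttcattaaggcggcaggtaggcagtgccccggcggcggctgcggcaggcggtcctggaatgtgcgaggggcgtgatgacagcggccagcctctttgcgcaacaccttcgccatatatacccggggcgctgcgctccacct
The SFTPA1 and SFTPA2 windows each held TATAA 28 and 30 bases before the start, GTAAACA 116 and 117 bases before it, and CTCAAG 170 and 172 bases before it. The second SFTPB window held TATAA 31 bases and ACAAACA 83 bases before its start, and the first held neither. No capital letters appear in the SLC34A2 window shown, but the second SLC34A2 window held TATAA 151 bases before its start. The first NAPSA window held TATAA 227 bases before its start and CTCAAG, on the opposite strand, 196 bases before it. Of 35116 RefSeq windows of the same length, 14.8% held TATAA, 3.42% GTAAACA, 5.23% ACAAACA and 12.4% CTCAAG. The AP-1 sequence TGANTCA, which 7.71% of windows held, occurred in both SFTPB windows, the second SFTPA2 window and the SFTPD window. The p53 half-site, present in 6.63% of windows, matched once among the 12, 5 bases before the SFTPD start. A match describes these letters and is not a measured binding site.

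Libraries held 18336672 to 25810934 counts. Levels are given as CPM, counts scaled by TMM library sizes. Changes are log2 fold changes of p53 siRNA over control siRNA ± SE from edgeR's quasi-likelihood test, and a gene was called at a Benjamini-Hochberg adjusted p below 0.05 over 17978 genes. All 10 members passed the filter on low counts, SFTPD only through NCI-H2110.

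With control siRNA the 3 lines carried different subsets of the set. To compare genes, CPM was divided by the length of the longest protein-coding transcript in kb. This holds only if reads cover whole transcripts, which the kit's name does not settle. In NCI-H2087 with control siRNA, SFTPA1 was the highest member at 277 ± 18.3 CPM per kb (SD, n = 2), followed by LPCAT1 at 141 ± 17.1 and SFTPA2 at 51.1 ± 2.78 CPM per kb. NAPSA at 21.5 ± 0.42, C16orf89 at 13.5 ± 0.36, SFTPB at 5.85 ± 2.45, ABCA3 at 3.17 ± 0.72 and LAMP3 at 1.32 ± 0.32 CPM per kb came next. SLC34A2, at 0.14 ± 0.11 CPM per kb, and SFTPD, with 0 and 1 counts, were close to absent. Of neighbours in this order, SFTPB and ABCA3 did not differ beyond their SDs, nor did SLC34A2 and SFTPD, whereas the others did.

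In NCI-H441 with control siRNA SFTPA1 and SFTPA2 led, at 333 ± 220 and 254 ± 156.6 CPM per kb (SD, n = 2). SLC34A2 at 124 ± 47.1, LPCAT1 at 111 ± 31.9 and NAPSA at 80.7 ± 42.1 CPM per kb followed, and neighbours among these 5 did not differ beyond their SDs. SFTPB stood at 6.39 ± 0.87, LAMP3 at 1.74 ± 0.72, C16orf89 at 1.56 ± 0.36 and ABCA3 at 0.82 ± 0.08 CPM per kb. NCI-H2110 had a different order: LPCAT1 at 31.2 and SLC34A2 at 13.9 CPM per kb were its leading members. LAMP3 (1.504) and SFTPD (1.35 CPM per kb) came next, and ABCA3, SFTPB, NAPSA and C16orf89 ranged from 0.58 down to 0.15 CPM per kb. SFTPA1 and SFTPA2 had 1 and 4 counts there with control siRNA and 2 each with p53 siRNA. SFTPC, the defining surfactant protein of these cells, was near 0 in all 3. Its counts were 3 and 11 in the control libraries of NCI-H2087, 0 in both p53 siRNA libraries, and at most 1 in any library of the other lines.

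**Figure D1:**
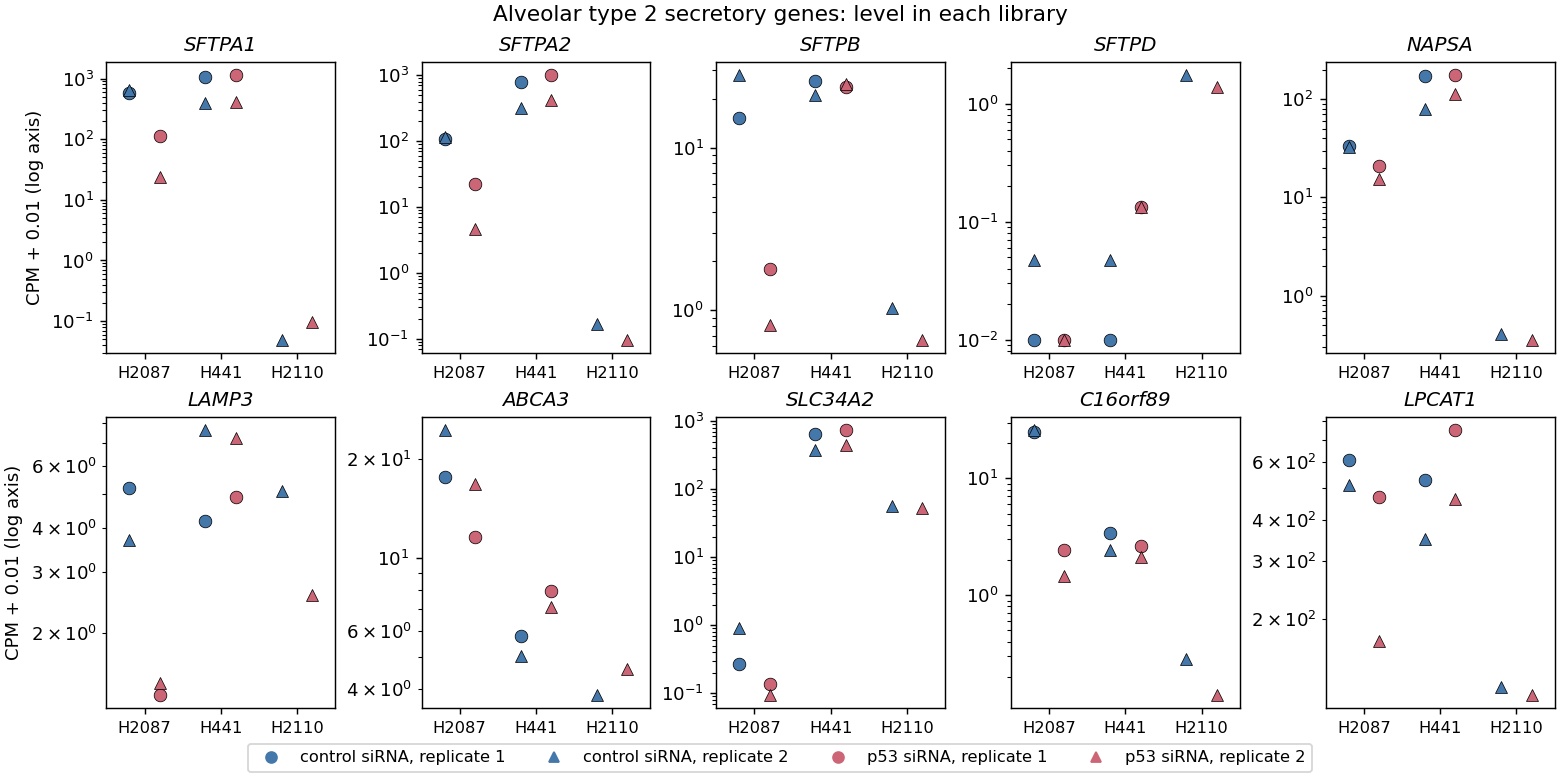
Level of each member in each library, as CPM + 0.01 on a log axis (each panel has its own scale), for NCI-H2087, NCI-H441 and NCI-H2110; blue is control siRNA, red is p53 siRNA, circles are replicate 1 and triangles replicate 2. In NCI-H2087 the red points lie below the blue ones for every member except SFTPD, whereas in NCI-H441 they overlap for all but SFTPD and ABCA3.

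Between the control libraries of the 2 replicated lines, 5 of the 10 members differed by edgeR's adjusted p, where 42.1% of all genes tested did, so the share is close to the background. SLC34A2 stood at 650 and 376 CPM in NCI-H441 against 5 and 24 counts in NCI-H2087, a log2 difference of 9.68 ± 0.53 (edgeR adjusted p = 1.75e-06). With so few counts in NCI-H2087 this value ran from 9.14 to 10.93 with 1 library left out, and it was 10.84 with the replicate number as a block. NAPSA, at 171 and 78.9 against 33.7 and 32.8 CPM, was higher in NCI-H441 by 1.91 ± 0.35 (adjusted p = 0.00199). ABCA3 was lower there by the log2 value of -1.96 ± 0.27 (adjusted p = 0.000342) and C16orf89 by -3.11 ± 0.31 (adjusted p = 4.94e-05). The cotransporter and the protease were thus higher in NCI-H441, and the lipid transporter and C16orf89 in NCI-H2087. SFTPA2 was higher in NCI-H441 by 2.31 ± 0.66 (adjusted p = 0.019), while SFTPA1 was not called (0.27 ± 0.68, adjusted p = 0.786). The SFTPA2 call was lost without either control library of NCI-H2087 or replicate 1 of the NCI-H441 controls (adjusted p = 0.0990, 0.0927 and 0.143).

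SFTPA1 and SFTPA2 are similar neighbours, with 89.3% identity between their longest GENCODE 29 coding transcripts, and the authors' counting may have split shared reads between them. SFTPA1 made up 84.4% and 84.7% of the counts of the pair in the control libraries of NCI-H2087, with 95% Clopper-Pearson intervals of 83.8 to 85.0% and 84.1 to 85.1%. With p53 siRNA the share was 83.5% and 83.7%, with intervals of 82.2 to 84.8% and 80.7 to 86.4%, which overlap those of the controls. Both treated shares lay slightly below both control shares, and this difference was not tested. In NCI-H441 the share was lower, at 57.5% and 55.6% in the controls against 53.1% and 49.5% in the treated libraries. All 4 values lie below all 4 of NCI-H2087, and the NCI-H441 arms do not overlap. With n = 2 per arm an exact permutation test cannot reach 0.05, and the intervals cover counting error only. Summed into 1 row, the pair differed between the lines' controls by 0.84 (edgeR adjusted p = 0.347), so the SFTPA2 call between lines was lost with the sum.

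**Figure D2:**
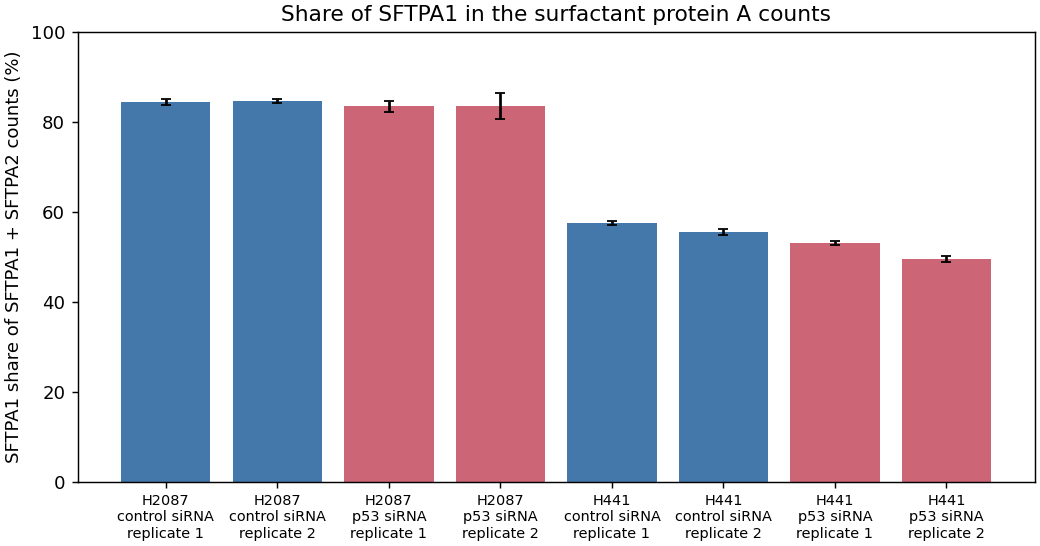
SFTPA1 share of the summed SFTPA1 and SFTPA2 counts, in percent, in the 8 libraries of the replicated lines; bars start at 0, blue is control siRNA, red is p53 siRNA, and error bars are 95% Clopper-Pearson intervals of counting error. Shares run from 83.5% to 84.7% in NCI-H2087 and from 49.5% to 57.5% in NCI-H441.

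With p53 siRNA, 5 of the 10 members fell in NCI-H2087 and the other 5 were not called. Of all genes tested, 8.68% were called and 3.69% were called lower. The members that fell were SFTPA1, SFTPA2, SFTPB, LAMP3 and C16orf89. In 9 of 10 members, all but SFTPD, both p53 siRNA libraries lay below both control libraries, as they did for 30.4% of all genes. The median log2 change of these 9 was -2.48, which is the value of SLC34A2, a gene with 2 to 24 counts in these libraries. Without SLC34A2 the median of the other 8 was -2.36, against -0.03 over all genes. Together the 10 members made up 0.148% and 0.146% of all counts in the control libraries and 0.0601% and 0.0221% in the treated ones. In bulk RNA, fewer cells with a transcript and less transcript per cell cannot be told apart.

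Among the collectins, SFTPA1 stood at 584 and 641 CPM in the controls and at 115 and 23.8 CPM in the treated libraries. The 2 controls are close to each other, whereas the treated libraries differ widely, replicate 2 being the lower. The log2 change was -3.14 ± 0.74 (edgeR adjusted p = 0.0310). SFTPA2 stood at 108 and 116 against 22.7 and 4.65 CPM and changed by -3.03 ± 0.70 (edgeR adjusted p = 0.0278). It followed SFTPA1 library by library. Summed, the pair changed by -3.13 ± 0.73 (adjusted p = 0.0290). SFTPD, the third collectin, had 0 and 1 counts against 0 and 0, too few for any statement in this line.

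SFTPB, the hydrophobic surfactant protein, had the largest fitted fall of the set. It stood at 15.1 and 27.8 CPM with control siRNA and at 1.79 and 0.80 CPM with p53 siRNA. Both treated libraries were far below both controls, and the log2 change was -4.05 ± 0.41 (edgeR adjusted p = 0.00111), a 16.5-fold fall. NAPSA, the protease that acts on its precursor, stood at 33.7 and 32.8 against 20.9 and 15.5 CPM. The groups do not overlap, but its change of -0.87 ± 0.35 was not called (edgeR adjusted p = 0.155).

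Among lamellar body genes, the membrane protein LAMP3 stood at 5.21 and 3.69 CPM with control siRNA and at 1.32 and 1.44 CPM with p53 siRNA. Both treated libraries were low, and the change was -1.68 ± 0.39 (edgeR adjusted p = 0.0285). This call was lost with limma-voom (-1.63, adjusted p = 0.0574). The lipid transporter ABCA3 stood at 17.6 and 24.4 against 11.5 and 16.7 CPM, with arms that barely separate, and its -0.57 ± 0.25 was not called (adjusted p = 0.195). LPCAT1, the acyltransferase, stood at 609 and 513 against 469 and 172 CPM. Replicate 2 with p53 siRNA was far below the other 3 libraries, and the change of -0.81 ± 0.41 was not called (edgeR adjusted p = 0.259). SLC34A2 was at the edge of detection, with 5 and 24 counts against 3 and 2, and was not called (-2.48 ± 0.90, adjusted p = 0.122).

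C16orf89 fell almost as far as SFTPB and with less spread. It stood at 24.8 and 25.7 CPM in the control libraries and at 2.44 and 1.44 CPM with p53 siRNA. The log2 change was -3.70 ± 0.32 (edgeR adjusted p = 0.000577), a 13.0-fold fall.

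**Figure D3:**
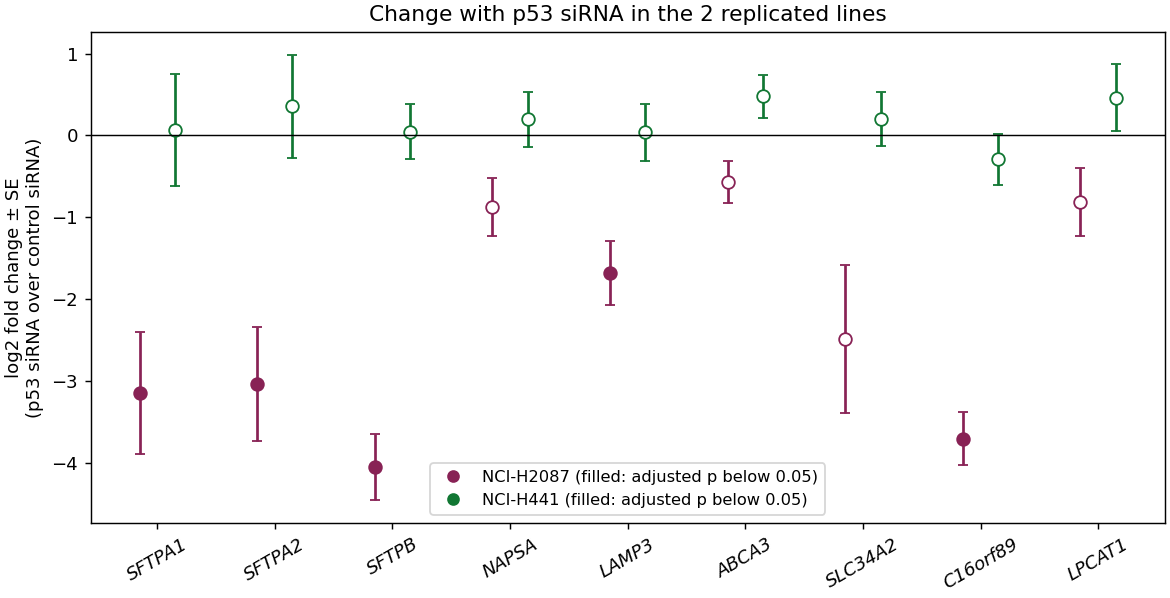
Log2 fold change ± SE (edgeR, p53 siRNA over control siRNA) of 9 members in NCI-H2087 (purple) and NCI-H441 (green); filled points have an adjusted p below 0.05, and SFTPD is left out for its low counts. All NCI-H2087 points lie below 0, from -0.57 for ABCA3 to -4.05 for SFTPB, and the NCI-H441 points run from -0.29 to 0.48.

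How firm these calls are depended on the spread between the libraries. Libraries of the same replicate number deviated together, so a fit with the replicate number as a block was made as well. With that replicate block, 9 of 10 members were called in NCI-H2087, all lower, where 25.4% of all genes were called. That fit left only 2 residual degrees of freedom, against 4 without the block. NAPSA (-0.89 ± 0.16, edgeR adjusted p = 0.00109), LPCAT1 (-0.98 ± 0.21, adjusted p = 0.00283), SLC34A2 (-2.40 ± 0.56, adjusted p = 0.00541) and ABCA3 (-0.58 ± 0.17, adjusted p = 0.0206) then passed as well. In the other direction, leaving out control replicate 1, control replicate 2 or p53 siRNA replicate 2 of NCI-H2087 left 2 members called, SFTPB and C16orf89. Without p53 siRNA replicate 1, LPCAT1 was called (-1.71, adjusted p = 0.0256) and LAMP3 was not (adjusted p = 0.101). SFTPB and C16orf89 were called in every one of the 8 fits that left out 1 library of a replicated line, with adjusted p of at most 0.0165.

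In both pairs of NCI-H2087 the 9 members other than SFTPD were lower in the treated library. This follows where both treated libraries lie below both controls, as for 30.4% of all genes. Within pair 1 of NCI-H2087 the log2 ratio of CPM (prior count 2) was -3.30 for C16orf89, -3.02 for SFTPB, -2.35 for SFTPA1, -2.24 for SFTPA2 and -1.91 for LAMP3. Within pair 2 it was -4.98 for SFTPB, -4.74 for SFTPA1, -4.62 for SFTPA2, -4.09 for C16orf89 and -1.31 for LAMP3. The ratios of the SFTPA pair and SFTPB were thus lower in pair 2, and that of LAMP3 in pair 1. ABCA3 was nearly the same in both, at -0.60 and -0.54. LPCAT1 differed between them, at -0.38 and -1.58, as did SLC34A2, at -0.69 and -2.56, so that both were below LAMP3 in pair 2.

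**Figure D4:**
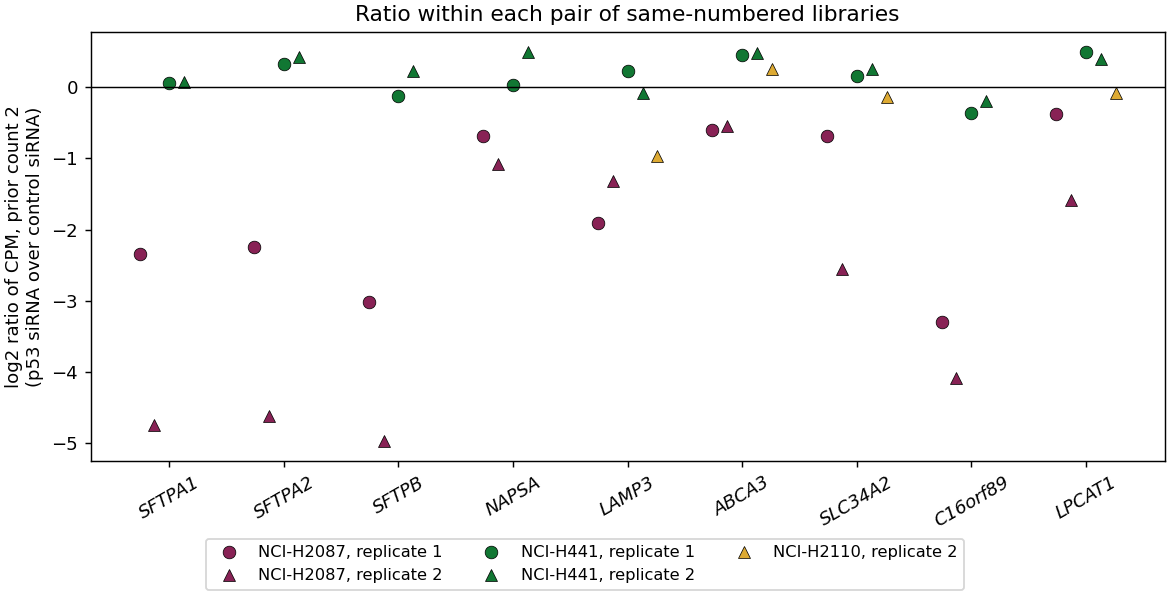
Log2 ratio of CPM (prior count 2, p53 siRNA over control siRNA) within each pair of same-numbered libraries, for NCI-H2087 (purple), NCI-H441 (green) and NCI-H2110 (yellow); circles are replicate 1, triangles replicate 2, and NCI-H2110 is drawn only for the 4 members with at least 50 counts. Both purple points lie below 0 for each of the 9 members shown, and the green points stay between -0.36 and 0.50.

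In NCI-H441 none of the 10 members was called, where 0.00556% of all genes tested were, that is 1 gene, so few calls could be made in this line. No member had an unadjusted p below 0.05 by edgeR, and 0 were called by DESeq2 or limma-voom. With the replicate block 0 members were called as well, where 0.417% of all genes were. The median change of the 9 members other than SFTPD was 0.20, against 0.01 over all genes. Of the 9, 8 were above 0, where 46.2% of all genes were below 0.

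The collectin pair stayed high in this line. SFTPA1 stood at 1081 and 393 CPM with control siRNA and at 1131 and 415 CPM with p53 siRNA, and changed by 0.07 ± 0.68. SFTPA2 stood at 799 and 314 against 999.6 and 423 CPM (0.35 ± 0.63). Replicate 1 was far above replicate 2 in both arms, so the arms overlap fully and the SE is wide. SFTPB stood at 25.7 and 21.2 against 23.6 and 24.8 CPM, with all 4 libraries close together (0.05 ± 0.33). SFTPD had 0 and 1 counts against 3 and 3.

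The other members also stayed near their control level. NAPSA stood at 171 and 78.9 against 175 and 112 CPM (0.20 ± 0.34), and SLC34A2 at 650 and 376 against 729 and 450 CPM (0.20 ± 0.33). Both again had replicate 1 above replicate 2 in each arm. LAMP3 stood at 4.16 and 7.58 against 4.88 and 7.20 CPM (0.04 ± 0.35), with replicate 2 the higher. LPCAT1 stood at 530 and 351 against 749.8 and 464 CPM (0.46 ± 0.41), higher within both pairs but overlapping between arms. ABCA3, at 5.75 and 5.03 against 7.91 and 7.08 CPM, was the 1 well-counted member whose arms did not overlap, and both treated libraries were higher. Its 0.48 ± 0.27 was not called (edgeR adjusted p = 0.933), and 34% of all genes did not overlap between arms in this line. C16orf89 stood at 3.39 and 2.44 against 2.62 and 2.13 CPM (-0.29 ± 0.31).

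The change itself was compared between the lines with an interaction term. By this test 2 of 10 members differed, where 0.412% of all genes tested did. The log2 change of SFTPB, 0.05 in NCI-H441 and -4.05 in NCI-H2087, differed by 4.09 ± 0.52 (edgeR adjusted p = 0.0258). That of C16orf89, -0.29 and -3.70, differed by 3.41 ± 0.44 (adjusted p = 0.0258). SFTPA1 (3.21 ± 0.99, adjusted p = 0.216), SFTPA2 (3.39 ± 0.93, adjusted p = 0.173) and LAMP3 (1.72 ± 0.52, adjusted p = 0.211) had large differences that were not called. All 9 members other than SFTPD had a difference above 0, with a median of 2.68, again the value of SLC34A2, and of 2.46 without it. Over all genes the median was 0.03, and 47.8% of differences were below 0. Leaving out 1 library ended both calls in each of the 8 fits except that without p53 siRNA replicate 1 of NCI-H2087, where SFTPB, C16orf89 and SFTPA2 were called. For SFTPB the adjusted p then ran from 0.0127 to 0.138, and for C16orf89 from 0.0135 to 0.170. With the replicate block 9 of 10 members differed, where 8.92% of all genes did.

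NCI-H2110 has no replicate, so its pair is described without a test. No member with at least 50 counts passed a 2-fold ratio, where 1.49% of the 12385 genes with such counts did. LAMP3 came closest, with 129 counts (5.08 CPM) against 59 (2.56 CPM), a log2 ratio of -0.97 with a 95% counting interval of -1.46 to -0.53. SLC34A2, the second member by level, stood at 57.3 against 52.0 CPM (-0.14), LPCAT1 at 124 against 117 CPM (-0.08) and ABCA3 at 3.82 against 4.59 CPM (0.26). SFTPD, which this line alone expressed above a few counts, had 44 counts against 32. SFTPB had 26 against 15 counts, NAPSA 10 against 8 and C16orf89 7 against 3, each within counting error.

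An additive model asked for a change common to the 3 lines and called none of the 10 members, where 0.395% of all genes tested were called. By edgeR, 3 members had an unadjusted p below 0.05: C16orf89 (-1.98 ± 0.57, adjusted p = 0.149), LAMP3 (-0.81 ± 0.32, adjusted p = 0.287) and SFTPB (-1.61 ± 0.65, adjusted p = 0.301). Among the 17978 genes tested they ranked only 518, 1606 and 1779 by this p. DESeq2 called 1, C16orf89, where 3.39% of all genes were called, and limma-voom 0, where 0.523% were. LAMP3 was lower with p53 siRNA in all 3 pairs of NCI-H2087 and NCI-H2110 and close to its control level in NCI-H441.

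Genes around the set were described from lists of related function, chosen with earlier results of these data known. Beside their counts in NCI-H2087 stand the shares over all genes tested, 4.98% called higher and 3.69% called lower, or 12.8% and 12.6% with the replicate block. Of 15 further alveolar type 2 markers, 10 passed the filter, and in NCI-H2087 3 fell and 1 rose. ADGRF5, an adhesion receptor that limits the surfactant pool, stood at 345 and 423 CPM with control siRNA and at 59.6 and 33.6 CPM with p53 siRNA (-3.04 ± 0.39, edgeR adjusted p = 0.00256). SFTA3, a transcript next to NKX2-1, stood at 550 and 596 against 239 and 137 CPM (-1.60 ± 0.39, adjusted p = 0.0332). The protease CTSH fell by 0.95 ± 0.21 on the log2 scale (adjusted p = 0.0239) and the lysolipid transporter MFSD2A rose by 1.37 ± 0.33 (adjusted p = 0.0345). The median change of the 10 was -0.70. With the replicate block 5 fell and 2 rose.

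Genes of the lipid side of surfactant were mostly not called, and those that were rose. Of 16 measured genes of lipid synthesis, binding, storage and regulation, 5 rose and 0 fell in NCI-H2087, with a median of 0.21. The phosphatidylcholine enzymes PCYT1A, CHKA, CHPT1, CEPT1 and PEMT and the fatty acid enzymes SCD, FASN and ACLY were not called without the block. LPIN1, a phosphatidate phosphatase, stood at 34.6 and 31.5 CPM with control siRNA and at 114 and 94.6 CPM with p53 siRNA (1.66 ± 0.19, edgeR adjusted p = 0.00178). The fatty acid elongase ELOVL6 rose by 1.39 ± 0.22 (adjusted p = 0.00541), the fatty acid binding protein FABP5 by 1.30 ± 0.24 (adjusted p = 0.0115) and the lipid droplet protein PLIN2 by 1.15 ± 0.27 (adjusted p = 0.0299). No gene of the list was lower at an unadjusted p below 0.05 by edgeR (0 of 16), and with the replicate block 7 rose and 1 fell.

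Of 19 lamellar body and lysosome genes, all measured, 2 rose and 1 fell, and the median was -0.07. The trafficking regulator LYST rose by 1.13 ± 0.23 (edgeR adjusted p = 0.0174) and the protease CTSB by 0.84 ± 0.20 (adjusted p = 0.0316), while the acid ceramidase ASAH1 fell by 1.03 ± 0.21 (adjusted p = 0.0186). With the replicate block 4 rose and 3 fell. 

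Of 14 regulators of surfactant genes, 1 was called in NCI-H2087, a share near that of all genes (8.68%). CEBPD, a C/EBP factor, stood at 60.0 and 81.6 CPM with control siRNA and at 23.4 and 20.1 CPM with p53 siRNA (-1.71 ± 0.25, edgeR adjusted p = 0.00412). NKX2-1, named here outside the naming rule because the windows above were searched for its core, stood at 321 and 338 against 245 and 180 CPM. Both treated libraries were lower, and its -0.63 ± 0.25 was not called without the block (adjusted p = 0.151) but was with it (adjusted p = 0.00445). With the replicate block 5 of the 14 fell and 4 rose, where 25.4% of all genes were called. In NCI-H441 NKX2-1 stood at 212 and 150 against 243 and 158.4 CPM (0.15 ± 0.25). In NCI-H441 edgeR called 0 of the 91 measured genes of these lists and of the marker lists that follow. Of them 7 had an unadjusted p below 0.05. The share over all genes below it was not taken, so the 7 are not read as changes.

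Markers of other lung cell types were measured beside the set in NCI-H2087. Of 8 measured alveolar type 1 markers CAV1 rose and GPRC5A fell, of 7 club and goblet markers SPDEF rose and SCGB3A2 and CEACAM6 fell, and of 6 basal markers S100A2, KRT15 and ITGB4 rose and TP63 fell. The summed basal markers ran from 54.2 to 57.7 CPM with control siRNA and from 131 to 134 CPM with p53 siRNA, with KRT5 at 0 in this line. The summed club and goblet markers ran from 1968 to 2228 against 859 to 1430 CPM. CEACAM6 alone made up most of this sum, at 2007 and 1841 against 1306 and 791 CPM. SCGB1A1, MUC5AC, MUC5B and also SCGB3A2 were below 1 CPM in every library of this line. The called fall of SCGB3A2 rested on 19 and 19 counts against 1 and 1. The summed type 1 markers ran from 826 to 892 against 716 to 1144 CPM, with PDPN and CLIC5 at 0. Of 3 measured macrophage markers CD68, also a general lysosomal protein, rose, whereas MARCO, TYROBP and C1QB were at 0 in every library. None of 6 ciliated and 4 fibroblast or endothelial markers was called by edgeR without the block, and 1 of each list was lower at an unadjusted p below 0.05. With the replicate block these were called, CAPS of the ciliated list (adjusted p = 0.00250) and CDH5 of the other (adjusted p = 0.0292). The block also called HOPX of the type 1 list (adjusted p = 0.00636) and AGR2 of the club and goblet list (adjusted p = 6.7e-05) lower, and LAPTM5 of the macrophage list (adjusted p = 0.000915) higher. The part of these markers in the falls of the secretory genes was not tested.

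Neighbouring genes gave a local reference. USP39, beside SFTPB, changed by 0.11 ± 0.17 in NCI-H2087 (edgeR adjusted p = 0.727). NAGPA and ALG1, on either side of C16orf89, changed by -0.40 ± 0.22 (adjusted p = 0.297) and -0.15 ± 0.18 (adjusted p = 0.647), and NR1H2 beside NAPSA by 0.22 ± 0.19 (adjusted p = 0.527). None of these was called, with or without the block, in NCI-H2087 or NCI-H441. The pseudogenes NAPSB, RPS12P18 and DPY19L2P5, which neighbour NAPSA and the collectin cluster, had at most 1 count in any library.

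Likeness over the 10 libraries was measured as Pearson's r of log2 CPM against 10928 other genes with a mean of at least 5 CPM. The libraries come from 3 lines, so r mostly reflects differences between lines, and it is given as a description. SFTPA1 was most like DPP4 (r = 0.993), a dipeptidyl peptidase of the cell surface, and SFTPA2 like ADGRF1 (r = 0.995). SFTPB was most like PLAGL2 (r = 0.980), NAPSA like SLFN11 (r = 0.996), and SLC34A2 like PROM2 (r = 0.995). C16orf89 was most like C15orf40 (r = 0.986), LPCAT1 like FAT1 (r = 0.969), ABCA3 like ANO9 (r = 0.977) and LAMP3 like FAM111A-DT (r = 0.957). Within the set, NAPSA and SFTPA2 were the most alike (r = 0.980), followed by NAPSA and SFTPA1 (r = 0.970) and the SFTPA pair (r = 0.967). The lowest values were those of SFTPD with SFTPA1 (r = -0.860) and with NAPSA (r = -0.813), where SFTPD had at most 3 counts outside NCI-H2110, and that of SLC34A2 with ABCA3 (r = -0.776).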

How the data were processed

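The deposited table holds whole-number counts per gene, without normalization, for 10 libraries. The submitters' processing notes name Bowtie2, the hg19 build and RSEM 1.2.12, and whether these are rounded RSEM estimates is not given in the sources used here. Per the labels, RNA came from an RNeasy Plus kit and a Lexogen mRNA kit served for library preparation. A names table and GENCODE 29 paired IDs with symbols, and 130 of 133 list entries were found.

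The analysis ran in R 4.3.3. In edgeR 4.0.16, filterByExpr over the 6 combinations of line and arm kept 17978 genes, TMM gave the scaling, and group means were estimated by quasi-likelihood with 4 residual degrees of freedom. The common change came from line plus siRNA as additive terms, which left 6. Adding the replicate block to the group means left 2. Tests were two-sided, with Benjamini-Hochberg adjustment over all genes. The code was tested on simulated data. DESeq2 1.42.0, limma 3.58.1 (voom), other scalings, no filter, a replicate block and leaving out libraries were alternatives.

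Over 9332 genes, replicate differences in one arm correlated with those in the other (r = 0.534 in NCI-H2087 and 0.595 in NCI-H441). The numbers were therefore taken as pairing libraries in the replicate block and in the ratios within pairs. The main tests left this pairing out. Replicates differed by more than counting noise, with a chi-square averaged over genes of 20.0 to 59.6 across the 4 arms.

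The members and lists were chosen with earlier results of these data known. All 10 members are named. Of each other list, up to 4 called genes with the smallest p in NCI-H2087 are named. NKX2-1, SFTPC, marker genes at or near 0, markers called only with the block and some uncalled lipid enzymes were added. The 3 most alike genes were ranked for each member, and the first is named. Promoter sequences are from RefSeq (GRCh38.p14). The level of the siRNA's own target is not reported here.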

Additional observations from a re-analysis of the deposited data

Results flagged for a closer look

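The change with p53 siRNA differed between NCI-H441 and NCI-H2087 for 2 members, by the interaction term of the edgeR model. For SFTPB the difference was 4.09 ± 0.52 on the log2 scale (adjusted p = 0.0258), since it fell by 4.05 in NCI-H2087 and stood at 0.05 ± 0.33 in NCI-H441. For C16orf89 the difference was 3.41 ± 0.44 (adjusted p = 0.0258), with changes of -3.70 ± 0.32 and -0.29 ± 0.31. Both treated libraries were below both controls in NCI-H2087 for each gene. With 1 library left out the difference ran from 3.56 to 4.78 for SFTPB and from 3.08 to 3.84 for C16orf89. Most of these fits no longer called either gene, as described above. With the replicate block 9 of 10 members were called (8.92% of all genes), and without a filter on low counts 8 (2.76%). The calls thus single out these 2 genes in some fits only. With the block they still had the lowest adjusted p of the set by edgeR, 6.19e-05 for SFTPB and 5.84e-05 for C16orf89.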

How the results depend on the processing

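In NCI-H2087, 5 members were called, and 4 by limma-voom, 8 without a filter on low counts, 9 with the replicate block and 2 to 5 when 1 library was left out. For the difference between lines the count was 2, against 8 without a filter, 9 with the replicate block and 0 to 3 with 1 library left out. The common change gave 0, against 5 without a filter, where 3.83% of all genes were called, and 1 by DESeq2, where 3.39% were. In NCI-H2087 limma-voom called 8.97% of all genes, the fit without a filter 9.21% and the block 25.4%. For the difference between lines the share was 2.76% without a filter and 8.92% with the block. Without the filter the NCI-H2087 SE of SFTPA1 went from 0.74 to 0.20, and that of ABCA3 from 0.25 to 0.28. The fit without a filter is therefore not directly comparable with the main one. NCI-H441 gave 0 under every alternative run, and the control comparison 5, with 4 to 5 when 1 library was left out. Where a library was left out of an arm of 2, the lone sample was assumed to vary like the other groups. The block changed no other call of a member than those printed. Fitted changes in NCI-H2087 stayed below 0 for the 9 members other than SFTPD under each alternative that gave a value, and SLC34A2 had none in the fit of the NCI-H2087 libraries alone. With library totals in place of TMM, the median over all genes in NCI-H2087 went from -0.03 to -0.21, the share of calls that were higher from 57.4% to 33.2%, and the median of the 9 members from -2.48 to -2.65. For the difference between lines that share moved from 41.9% to 53.5%.

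Values near 0 changed sign. With 1 library left out, the NCI-H441 change ran from -0.83 to 0.96 for SFTPA1, -0.40 to 1.16 for SFTPA2, -0.077 to 0.174 for SFTPB, -0.25 to 0.84 for NAPSA, -0.35 to 0.55 for LAMP3 and -0.19 to 0.63 for SLC34A2. The control comparison ran from -0.62 to 0.80 for SFTPA1, -0.24 to 0.64 for SFTPB and -0.11 to 0.79 for LAMP3. LAMP3 was -0.015 in NCI-H441 with library totals, and -0.12 in the control comparison with the replicate block. The cause was not tested. At this depth SFTPD in NCI-H2087 and NCI-H441 and the SFTPA pair in NCI-H2110 were too low for a change to be measured. SLC34A2 in NCI-H2087 rested on few counts, and its change ran from -3.02 to -1.23 with 1 library left out.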
